A study of Mus musculus with 18 samples.

Results

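The comparison set the mouse mammary tumour line M-Wnt against the line E-Wnt, both kept for 72 h in control medium. Its members were the 6 arrays of the series whose titles name M-Wnt control or E-Wnt control, replicates 1 to 3 of each, out of 18 arrays in all. The remaining arrays carried the same lines in medium without folic acid, and the line metM-Wnt, labelled as a liver metastasis, in both media. Control medium was RPMI 1640 with 2.2 µM folic acid and 10% regular fetal bovine serum, given alike to both lines; the unit is that of the sample labels, and the series' design text writes mM. The medium without folic acid (0 µM) had dialyzed serum. RNA of the cells was labelled with Cy5 (red) and hybridised to 2-colour Agilent arrays against Cy3-labelled RNA (green) of NIH3T3 mouse fibroblasts, the common reference, with no dye swap. A value below is therefore a log2 ratio of the line's RNA to NIH3T3 RNA unless stated otherwise, and a difference is M-Wnt minus E-Wnt. Each line is a single cell line, so the arrays compare these lines and not tumour types, and the 3 arrays of a line are biological replicates per the series' design text.

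Both lines come, as background, from mammary tumours of mice that carry a Wnt1 transgene in the mammary gland. E-Wnt has been described as epithelial and basal-like, and M-Wnt as mesenchymal and claudin-low. Epithelial cells hold sheets together with junctions, a keratin skeleton and a polarised cortex in which proteins such as ezrin tie actin to the membrane. Mesenchymal cells give up those features in the epithelial to mesenchymal transition and take on a fibroblast-like shape and skeleton. Only Ezr could be read among the markers listed for the labelled cell types, since the files do not pair probes with genes. This 1 gene cannot check the labels. Of the lists of epithelial (38 genes), basal (14), luminal (13) and mesenchymal (34) markers, and of macrophages, lymphocytes, endothelium, adipocytes and hepatocytes, no other member had a probe that could be named.

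Mean red signal of a spot lay between 4701 and 6649 on the 3 E-Wnt arrays and between 4213 and 5170 on the 3 M-Wnt arrays, and the red channel exceeded its background clearly, by the scanner software's flag (well above background), in 50.2% to 56.5% of the spots of an array. No spot was saturated. The 3 E-Wnt arrays lay on slide 1, M-Wnt arrays 1 and 2 on slide 2 and M-Wnt array 3 on slide 3. Scan and extraction followed the slide, and the E-Wnt arrays were extracted with a grid file made at extraction while the M-Wnt arrays used the array design file. No slide held control arrays of both lines, so line and slide cannot be told apart within these 6 arrays. The median SD between arrays of a line was 0.18 log2 for E-Wnt, all on 1 slide, and 0.11 for M-Wnt, on 2 slides.

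The 2 lines differed over a large share of the transcripts measured. Of 41065 features tested, 18718 (45.6%) passed limma's test at an adjusted p under 0.05, of which 9603 (23.4%) were higher and 9115 (22.2%) lower in M-Wnt. By at least 2-fold, 7332 features (17.9%) were called, 3765 higher and 3567 lower. The count fell with size to 1213 higher and 1143 lower by at least 4-fold, 512 and 517 by at least 8-fold, and 232 and 252 by at least 16-fold. At each of these sizes the counts in both directions were close. The median size was 0.36 log2 over all features and 0.83 over those called, against a median SE of 0.16. The 3 arrays of a line all lay beyond the 3 of the other in 23166 features (56.4%), 11968 (29.1%) higher and 11198 (27.3%) lower in M-Wnt, and 18395 (44.8%) were both called and apart. Most differences of at least 2-fold were measured in both lines: 3101 of the 3765 features higher by at least 2-fold (82.4%), and 2900 of the 3567 lower (81.3%), were well above background on all 6 arrays. That share was 85.1% over all features tested, and 73.7% of those higher and 73.8% of those lower by at least 16-fold.

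In the green channel every array carried the same reference RNA, so green alone shows the spread of the reference and not that of the cell RNA. In the ratio, arrays of 1 line and medium on 2 slides differed more. M-Wnt control arrays 1 and 2 (slide 2) differed from array 3 (slide 3) by a median size of 0.12 log2. E-Wnt arrays 2 and 3 without folic acid (slide 2) differed from array 1 (slide 1) by a median of 0.20 and at most 2.75. In the same fit on green signal alone, 444 features (1.08%) were called between the M-Wnt and E-Wnt arrays and 92 (0.224%) were called by at least 2-fold. The median size of a difference in green alone was 0.043 log2. For the 92 features, the red channel alone moved the same way as green in 48, and its median difference in size was 3.93. What part the reference channel had in those ratios was not tested.

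**Figure D1:**
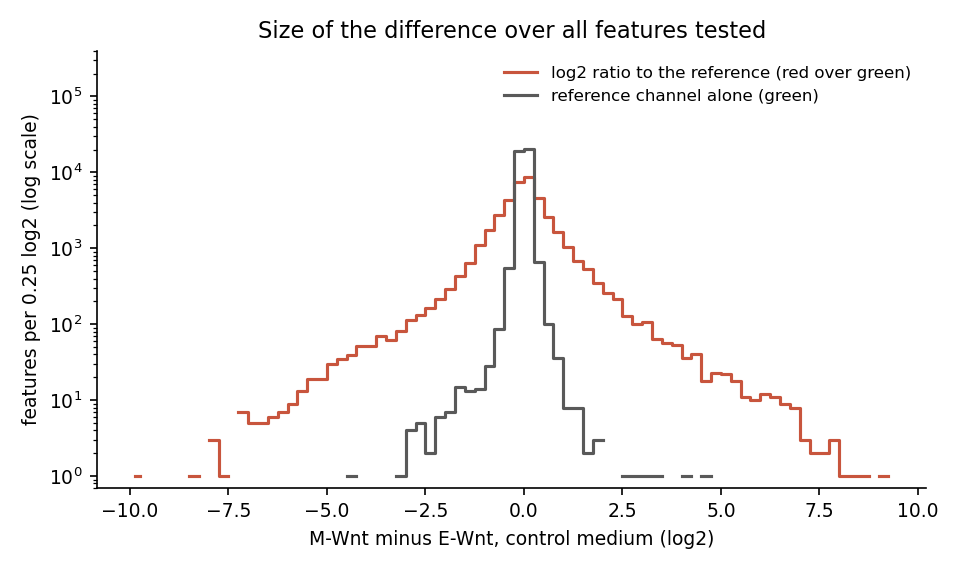
Number of features (log scale) by the difference M-Wnt minus E-Wnt in control medium, in bins of 0.25 log2, for the ratio to the reference and for the reference channel alone. The ratio spreads to both sides about evenly and out to a fall of 9.85 and a rise of 9.07, while the reference channel is narrower, with a median size of 0.043 and a largest of 4.58.

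The largest differences were in probes without a gene name, chosen here after their values were seen. Probe A_51_P324814 fell most. Its red signal on the E-Wnt arrays was 519709, 540130 and 595616, and on the M-Wnt arrays 2877, 2345 and 2026. Its log2 ratios were 4.50, 4.24 and 4.76 in E-Wnt and -5.22, -5.39 and -5.44 in M-Wnt, a difference of -9.85 ± 0.20 (SE, n = 3 per line). The reference signal of this probe differed too, at 13.7, 14.1 and 13.1 on the E-Wnt arrays and 16.3, 16.2 and 16.3 on the M-Wnt arrays (log2), and the red channel alone gave -7.85. Its part in the ratio was not tested. Probe A_51_P242399 followed with red signal of 322724, 304960 and 446738 in E-Wnt and 1433, 1299 and 1019 in M-Wnt, a difference in ratio of -8.40 ± 0.14. Its reference signal was higher on the M-Wnt arrays by 1.04 and the red channel alone gave -7.99. In red signal both probes were lower on every M-Wnt array than on any E-Wnt array. They are shown because they carry the largest falls, and the files name no gene for them.
A_51_P324814: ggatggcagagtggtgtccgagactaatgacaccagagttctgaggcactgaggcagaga
A_51_P242399: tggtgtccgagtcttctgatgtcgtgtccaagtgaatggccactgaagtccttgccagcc

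In the other direction stood probes A_51_P337412 and A_51_P392687. The first had red signal of 111, 153 and 165 in E-Wnt and 96720, 98193 and 87925 in M-Wnt, and its ratio differed by 9.07 ± 0.21. The second had 1633, 2204 and 2306 in E-Wnt and 394046, 419927 and 312695 in M-Wnt, a difference of 8.70 ± 0.19. The reference signal of the second was lower by -1.47 on the M-Wnt arrays and the red channel alone gave 7.83. Both were higher on every M-Wnt array than on any E-Wnt array, and both were well above background on all 3 E-Wnt arrays. Without folic acid, on other arrays, the 4 probes differed by -9.32, -8.20, 9.22 and 8.39 in the order named.

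A second view of the same contrast is presence against absence. A probe was counted for a line when the red flag was set for both spots on all 3 arrays of that line and for no spot on the 3 arrays of the other. By this count 476 of 80520 probes (0.591%) were detected in M-Wnt only and 622 (0.772%) in E-Wnt only, while 34977 were detected on all 6 arrays and 27121 on none. Most were dim: as a lower bound against the faintest detected signal of the array, the median probe was at least 2.17-fold higher in the line that had it for M-Wnt and at least 1.76-fold for E-Wnt. Of the M-Wnt only probes 52, and of the E-Wnt only probes 62, reached at least 8-fold, with the highest bounds at 237-fold and 156-fold. These values describe the probes the detection call chose and carry no test. The counts depended on the call. With at most 1 array of the other line allowed they were 768 and 967, with signal over 2 times the cut-off 172 and 231, and without E-Wnt array 1 the E-Wnt only count was 1157.

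Much of the detection pattern was seen again in arrays that the count did not use. Of the 476 M-Wnt only probes, 67.2% were detected on all 3 M-Wnt arrays without folic acid and 0.63% on all 3 E-Wnt arrays without folic acid. Of the 622 E-Wnt only probes, 81.0% were detected on all 3 E-Wnt arrays and 2.41% on all 3 M-Wnt arrays without folic acid. Absence by the count's own rule, no spot flagged on any of the 3 arrays, was less complete. It held for 70.2% of the M-Wnt only probes in E-Wnt without folic acid. For the E-Wnt only probes it held for 73.8% in M-Wnt without folic acid. metM-Wnt, the line labelled as a metastasis, had most of the M-Wnt only probes: in control medium 67.0% of the M-Wnt only probes and 2.25% of the E-Wnt only probes were detected on all 3 of its arrays. NIH3T3 RNA gave green signal above background on all 6 arrays for 70.0% of the M-Wnt only and 83.1% of the E-Wnt only probes, against 99.6% of probes detected in both lines and 13% of those detected in neither.

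**Figure D2:**
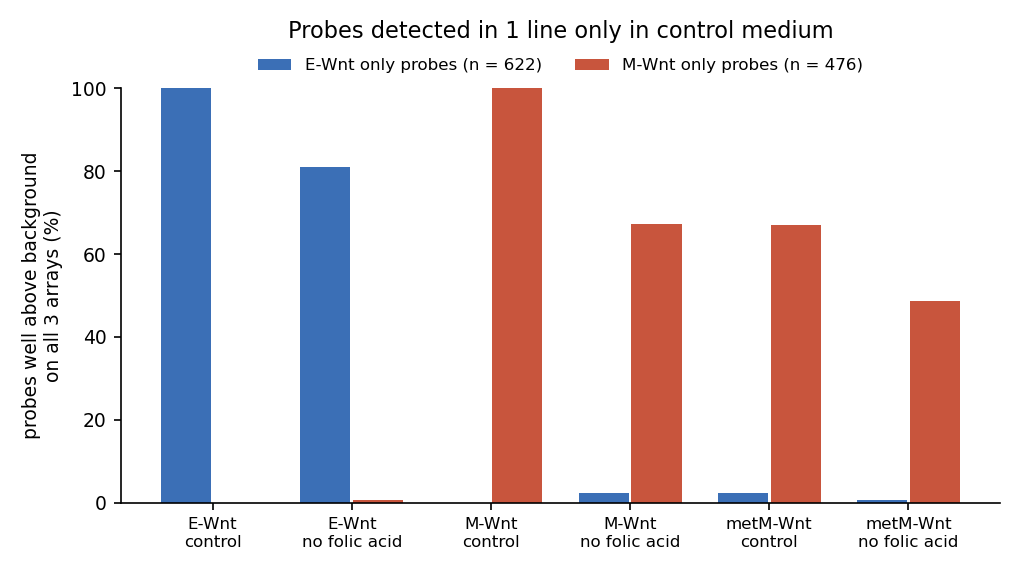
Share of the 476 M-Wnt only and 622 E-Wnt only probes that were well above background on all 3 arrays of each of the 6 groups. The control groups of E-Wnt and M-Wnt chose the probes and stand at 100% or 0 by construction; in the other groups the E-Wnt only probes were seen in E-Wnt (81.0%) and the M-Wnt only probes in M-Wnt and metM-Wnt (48.7% to 67.2%).

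Named genes were few, since only 109 tested features could be tied to a gene. Of these, 44 were called (40.4%, beside 45.6% of all features), 25 higher and 19 lower, and 15 were called by at least 2-fold (13.8%, beside 17.9%). All 44 had their 3 arrays of a line beyond the 3 of the other, as had 18395 of all 18718 called features. The 44 include Rnf125, Psme3ip1, Gm904, Krtap15, BC051226 and Fgf11, for which no test is given below. The accounts that follow take the 15 with the largest rise, the 15 with the largest fall and the tested members of gene lists for epithelial, folate, folding, redox, respiratory, splicing, cell cycle, interferon and trafficking genes, 35 genes in all. The lists had between 1 and 5 tested members each, so they are described by gene.

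**Figure D3:**
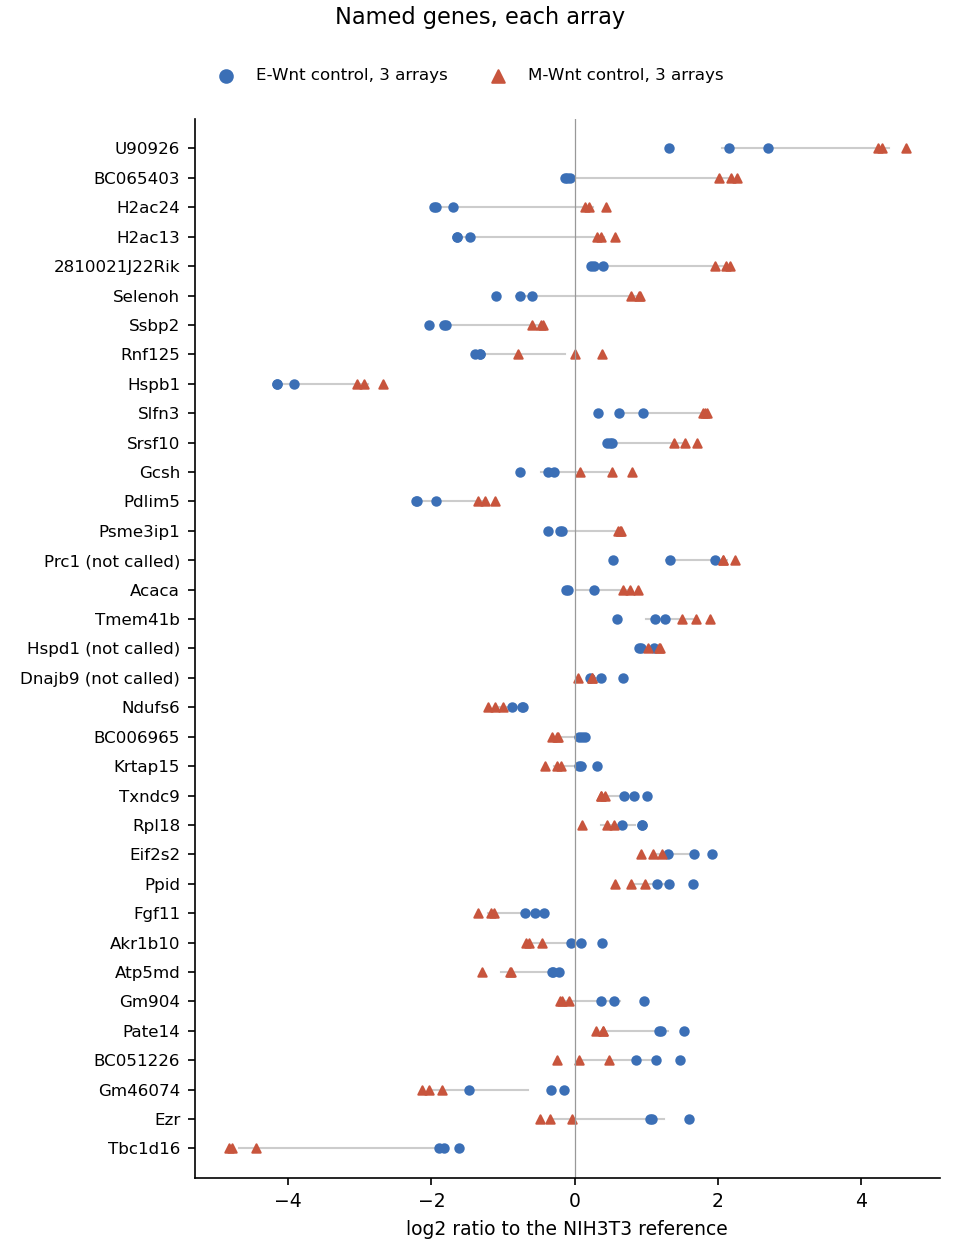
Log2 ratio to the NIH3T3 reference of the 35 named genes on each of the 3 E-Wnt (circles) and 3 M-Wnt (triangles) control arrays, ordered by difference, with a grey line between the means. U90926 and BC065403 rise most and Tbc1d16 falls most; Prc1, Hspd1 and Dnajb9 are marked as not called. Rnf125 and Psme3ip1 in E-Wnt and Gm904 and Krtap15 in M-Wnt were not well above background. BC051226 and Fgf11 were so on some but not all M-Wnt arrays.

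Ezr and Pdlim5, of the cell cortex and the actin skeleton, were called in opposite directions, and Pdlim5 was taken for its size. Over all features 22.2% were called lower and 23.4% higher, and 2 genes cannot be told from those shares. Ezr, which encodes ezrin, the linker of actin to the membrane of epithelial surfaces, stood at 1.60, 1.05 and 1.08 in E-Wnt and at -0.48, -0.34 and -0.04 in M-Wnt. It was 2.90-fold below E-Wnt in M-Wnt (-1.53 ± 0.28, adjusted p = 0.000224), and the lines did not overlap. Ezr was the single tested gene of the 38 epithelial markers and of the 15 membrane-cytoskeleton linkers, and metM-Wnt in control medium had 0.36, -0.78 and -0.06. Pdlim5, a PDZ and LIM domain protein bound to actin filaments, was 1.85-fold above E-Wnt in M-Wnt (0.88 ± 0.19, adjusted p = 0.00117), from -1.94, -2.22 and -2.20 in E-Wnt to -1.35, -1.25 and -1.11. Both of its probes, which share 26 bases (capitals below), gave the same difference, 0.87 and 0.90. The Pdlim5 probes are shown because they read the same strand of the gene through separate designs, and the Ezr probe because it is the 1 epithelial marker tested.
Ezr: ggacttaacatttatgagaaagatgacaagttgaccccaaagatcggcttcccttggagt
Pdlim5, first probe: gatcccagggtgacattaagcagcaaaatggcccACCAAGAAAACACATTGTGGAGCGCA
Pdlim5, second probe: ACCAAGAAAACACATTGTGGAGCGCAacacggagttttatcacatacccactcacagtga

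Of the 22 genes of membrane trafficking and autophagy, 2 were tested, 1 called lower and 1 called higher. Over all features 22.2% were called lower and 23.4% higher, and 2 genes cannot be told from those shares. Tbc1d16, a Rab GTPase-activating protein, had the largest fall of any named gene. It stood at -1.82, -1.61 and -1.90 in E-Wnt and at -4.46, -4.79 and -4.83 in M-Wnt, 7.55-fold lower (-2.92 ± 0.16, adjusted p = 1.58e-10). Its mean red signal over 2 probes was 2673, 2179 and 3442 in E-Wnt and 180, 183 and 164 in M-Wnt, and the probes fell by different amounts, -4.02 for the 60-base and -1.81 for the 45-base probe. Tmem41b, an endoplasmic reticulum lipid scramblase needed to form autophagosomes, was 1.62-fold higher (0.70 ± 0.17, adjusted p = 0.00229), from 1.12, 0.60 and 1.27 to 1.499, 1.69 and 1.90. The Tmem41b call was lost with median centring (0.70, adjusted p = 0.101) and with slide fitted as a block (0.50, adjusted p = 0.284).

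Among chaperones and folding helpers, 5 of 24 list members were tested, with 1 higher, 2 lower and 2 not called. Over all features 23.4% were called higher and 22.2% lower, and 5 genes cannot be told from those shares. Their median difference was -0.25 beside 0.018 over all features, and no shift of the list was tested. Hspb1, the small heat shock protein that binds unfolded proteins and actin, was 2.30-fold above E-Wnt in M-Wnt (1.20 ± 0.18, adjusted p = 3.62e-05). Its ratios were -4.16, -3.92 and -4.16 in E-Wnt and -2.68, -2.94 and -3.03 in M-Wnt, so both lines lay well under NIH3T3 and M-Wnt was the closer on every array. Its 2 probes share 40 bases, shown in capitals, and rose by 1.07 and 1.33.
Hspb1, first probe: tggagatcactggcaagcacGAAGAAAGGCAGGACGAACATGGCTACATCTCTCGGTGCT
Hspb1, second probe: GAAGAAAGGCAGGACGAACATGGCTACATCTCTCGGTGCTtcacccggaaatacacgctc
Ppid, a cyclophilin that assists folding with Hsp90, was 1.51-fold lower (-0.60 ± 0.15, adjusted p = 0.00439), and Txndc9, a thioredoxin-domain partner of the cytosolic chaperonin, 1.37-fold lower (-0.46 ± 0.10, adjusted p = 0.00124). Hspd1, the mitochondrial chaperonin, differed by 0.15 ± 0.16 (adjusted p = 0.472) and Dnajb9, an endoplasmic reticulum co-chaperone, by -0.25 ± 0.14 (adjusted p = 0.155). Median centring ended the call of Ppid (-0.56, adjusted p = 0.287) and of Txndc9 (-0.41, adjusted p = 0.354), and slide as a fixed block that of Ppid (-0.57, adjusted p = 0.192).

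Folate and one-carbon metabolism had 1 tested gene of 32. It was called higher, beside 23.4% of all features, and a single gene cannot be told from that share. Gcsh, the H protein of the glycine cleavage system that feeds one-carbon units into the folate pool in mitochondria, was 1.92-fold above E-Wnt in M-Wnt (0.94 ± 0.24, adjusted p = 0.00429). It stood at -0.37, -0.76 and -0.28 in E-Wnt and at 0.08, 0.53 and 0.81 in M-Wnt, where the spread between arrays was wider (SD 0.37 against 0.25). With slide as a fixed block the difference was 0.62 and was not called (adjusted p = 0.377). The 2 Gcsh probes share 48 bases and rose by 0.95 and 0.94.
Gcsh, first probe: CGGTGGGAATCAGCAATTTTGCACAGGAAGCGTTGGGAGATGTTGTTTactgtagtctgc
Gcsh, second probe: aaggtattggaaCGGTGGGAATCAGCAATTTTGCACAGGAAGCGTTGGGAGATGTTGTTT
Acaca, the acetyl-CoA carboxylase that commits acetyl-CoA to fatty acid synthesis, was 1.69-fold higher (0.76 ± 0.24, adjusted p = 0.0153), from 0.27, -0.09 and -0.11 to 0.77, 0.67 and 0.89. Its call was lost without E-Wnt array 3 (0.69, adjusted p = 0.0545), without M-Wnt array 3 (0.70, adjusted p = 0.0532) and with median centring (0.56, adjusted p = 0.0626). Slide as a fixed block gave 1.29 and Agilent's processed signals 1.19.

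Of 27 redox genes and selenoproteins 2 were tested, 1 called higher and 1 lower, and of 24 genes of oxidative phosphorylation 2 were tested and both were called lower, beside 45.6% of all features called and 22.2% called lower. Counts of 2 cannot be told from those shares. Selenoh, a nucleolar selenoprotein with a redox-active fold, was 3.21-fold above E-Wnt in M-Wnt (1.68 ± 0.31, adjusted p = 0.000241). It stood at -0.77, -1.09 and -0.59 in E-Wnt and at 0.79, 0.91 and 0.90 in M-Wnt, and its 60-base and 45-base probes rose by 1.72 and 1.65. Akr1b10, an aldo-keto reductase, was 1.66-fold lower (-0.73 ± 0.21, adjusted p = 0.00997), which makes 1 of 2 tested redox genes in each direction. Atp5md, a small subunit of ATP synthase, was lower by -0.75 ± 0.15 (adjusted p = 0.000592) and Ndufs6, a subunit of complex I, by -0.33 ± 0.11 (adjusted p = 0.0155). The smaller of these calls depended on settings. Akr1b10 was not called without E-Wnt array 3 (adjusted p = 0.0515), with median centring (adjusted p = 0.110) or with slide fitted as a block (adjusted p = 0.327). Atp5md was not called with median centring (adjusted p = 0.169) or with slide fitted as a block (-0.05, adjusted p = 0.889). Ndufs6 was not called without M-Wnt array 3 (-0.29, adjusted p = 0.0706), with its brightest probe (-0.30, adjusted p = 0.0534), with median centring (-0.20, adjusted p = 0.666) or with slide fitted as a block (-0.16, adjusted p = 0.631).

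Srsf10, a serine-arginine splicing factor and the 1 tested gene of 24 on the splicing list, was 2.08-fold higher (1.06 ± 0.12, adjusted p = 2.05e-06), from 0.53, 0.49 and 0.46 in E-Wnt to 1.40, 1.55 and 1.71. Over all features 23.4% were called higher, and a single gene of that list cannot be told from that share. Ssbp2, a single-stranded DNA-binding protein that stabilises LIM-domain transcription complexes, was taken for its size and was higher too (1.38 ± 0.11, adjusted p = 3.37e-08), from -2.03, -1.79 and -1.82 to -0.60, -0.44 and -0.47. In both genes the lines stood apart on every array, and the SD between arrays of a line was at most 0.16. Their probes are given because both calls held under each of the 23 alternatives run for them.
Srsf10: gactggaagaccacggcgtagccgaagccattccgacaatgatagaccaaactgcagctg
Ssbp2: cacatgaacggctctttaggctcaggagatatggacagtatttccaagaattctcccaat

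The histone H2A genes H2ac24 and H2ac13 were higher as well, 4.38-fold (2.13 ± 0.31, adjusted p = 2.87e-05) and 3.99-fold (SE 0.26 on the log2 scale, adjusted p = 6.28e-06). H2ac24 had red signal of 40816, 28956 and 51042 in E-Wnt and 153810, 154806 and 104770 in M-Wnt. Histone H2A is encoded by many nearly identical genes, so these values are uncertain as to which copy they read. Capitals mark the 40 bases of the H2ac13 probe that lie in the first transcribed bases of the gene in RefSeq.
H2ac13: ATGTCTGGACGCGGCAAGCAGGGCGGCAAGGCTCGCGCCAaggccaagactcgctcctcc
With slide as a fixed block both differences were larger, 3.59 for H2ac24 and 3.19 for H2ac13. On slide 2 that fit sets M-Wnt beside E-Wnt arrays 2 and 3 without folic acid. The 3 E-Wnt arrays without folic acid were uneven, at -1.72, -2.52 and -3.73 for H2ac24 and -1.51, -2.25 and -3.04 for H2ac13. What part this had in the larger values was not tested. Prc1, which bundles microtubules of the dividing spindle and was the 1 tested gene of 25 cell cycle genes, stood at 1.33, 0.54 and 1.96 in E-Wnt and at 2.08, 2.07 and 2.25 in M-Wnt. Its difference of 0.86 ± 0.57 was not called (adjusted p = 0.248), although its arrays did not overlap. It was called with the 6 arrays alone (adjusted p = 0.0462) and with array weights (0.72, adjusted p = 0.015), and not under the others run. Without E-Wnt array 2 the difference was 0.49 (adjusted p = 0.578), and with slide as a block 2.59 (adjusted p = 0.0779). The E-Wnt arrays without folic acid, which enter the slide fit, stood at 2.06, 1.69 and -1.16 for Prc1. Psme3ip1, a partner of the nuclear proteasome activator, was near background in E-Wnt, where no array had both spots well above background and 1 spot of 6 was. Against its E-Wnt signal near background it was 1.82-fold higher in M-Wnt, which is not a lower bound. Its difference was 0.74 log2 in the red channel alone and 0.52 with slide as a fixed block. Among these 6 arrays only those of M-Wnt could bring it through the detection filter, so no test is given.

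Of the interferon and Schlafen list of 28 genes, 2 passed the detection filter, Slfn3 and Rnf125. Only Slfn3 was well above background in both lines. It was called higher in M-Wnt, beside 23.4% of all features, and a single gene cannot be told from that share. Slfn3, a Schlafen family member, was 2.28-fold higher (1.19 ± 0.20, adjusted p = 0.000136), from 0.95, 0.62 and 0.33 to 1.83, 1.80 and 1.84, and the M-Wnt arrays were close together (SD 0.022). Rnf125, a ubiquitin ligase that acts on RIG-I, was near background in E-Wnt, with 2 of 6 spots well above it and no array with both. Against that signal near background it was 2.32-fold higher in M-Wnt, where its arrays ranged from -0.78 to 0.38. This is not a lower bound for Rnf125, and the red channel alone gave 1.09 log2. As for Psme3ip1, only the M-Wnt arrays of these 6 could bring it through the filter, and no test is given.

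Long non-coding RNAs, as the RefSeq gene table classes them, gave the largest rises among named genes. U90926 had red signal of 399, 279 and 1116 in E-Wnt and 28153, 26307 and 17794 in M-Wnt. Its ratios were 2.16, 1.32 and 2.71 against 4.63, 4.30 and 4.24, a difference of 2.33 ± 0.38 (adjusted p = 7.46e-05). The reference signal differed as well. Green signal of the U90926 probes was 6.86, 6.83 and 7.21 on the E-Wnt arrays and 9.86, 10.1 and 9.84 on the M-Wnt arrays (log2), although the reference RNA was the same. The red channel alone gave 5.70 and Agilent's processed signals 1.35, and the part of the green signal in this was not tested.

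BC065403 has a 60-base probe that was detected in both lines. This probe stood at 0.0052, -0.15 and -0.08 in E-Wnt and at 2.24, 2.36 and 2.16 in M-Wnt, a difference of 2.33 (adjusted p = 6.99e-11). Its 45-base probe was among those detected in M-Wnt only, at least 3.90-fold higher. BC051226 moved the other way, from 1.47, 0.87 and 1.14 to -0.24, 0.48 and 0.06. Its 60-base probe was detected on 2 and its 45-base probe on 1 of 3 M-Wnt arrays. Among these 6 arrays only those of E-Wnt could bring BC051226 through the detection filter, so no test is given. Its difference was -1.06, or -0.95 with slide fitted as a block, and processed signals gave -2.18. Gm46074 was lower by -1.36 ± 0.45 (adjusted p = 0.0213), and BC006965 by its 60-base probe, detected in both lines, by -0.35 (adjusted p = 0.00511). E-Wnt array 1 of Gm46074 stood at -1.47, nearer to the M-Wnt arrays (-1.85, -2.13 and -2.04) than to the other E-Wnt arrays (-0.14 and -0.33). The Gm46074 call was lost without E-Wnt array 2 (-1.10, adjusted p = 0.0927), E-Wnt array 3 (-1.20, adjusted p = 0.0764), M-Wnt array 2 (-1.29, adjusted p = 0.062) or M-Wnt array 3 (-1.34, adjusted p = 0.0534), and the difference was -2.78 with slide as a block. With its 45-base probe, which on no M-Wnt array had both spots well above background, averaged in, BC006965 was not called with slide fitted as a block (adjusted p = 0.0727). Each of the first 3 RNAs has a 60-base and a 45-base probe that cover the same stretch, in capitals, so that the same bases were read at both lengths. The rises of the longer and shorter probe were 1.89 and 2.77 for U90926, and the differences for BC051226 were -1.10 and -1.02.
U90926, 60 bases: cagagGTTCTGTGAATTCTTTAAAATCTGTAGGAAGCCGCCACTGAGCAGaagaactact
U90926, 45 bases: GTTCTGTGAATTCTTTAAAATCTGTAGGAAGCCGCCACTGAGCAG
BC065403, 60 bases: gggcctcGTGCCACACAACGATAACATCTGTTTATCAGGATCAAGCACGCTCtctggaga
BC065403, 45 bases: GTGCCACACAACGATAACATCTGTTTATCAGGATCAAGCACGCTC
BC051226, 60 bases: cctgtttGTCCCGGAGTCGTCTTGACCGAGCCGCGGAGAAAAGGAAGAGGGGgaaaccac
BC051226, 45 bases: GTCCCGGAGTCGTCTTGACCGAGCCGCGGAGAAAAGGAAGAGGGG

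Of the remaining named genes, 1 was higher and 6 were lower in M-Wnt. 2810021J22Rik, a protein-coding gene of the RefSeq table, was 3.44-fold higher (1.78 ± 0.11, adjusted p = 6.62e-10), from 0.40, 0.23 and 0.27 to 2.11, 2.17 and 1.96. Eif2s2, a subunit of the initiation factor that brings the first tRNA to the ribosome, was 1.47-fold lower (-0.55 ± 0.19, adjusted p = 0.0262), and Rpl18, a ribosomal protein, 1.40-fold lower (-0.48 ± 0.15, adjusted p = 0.016). For both translation genes the call depended on single arrays. Eif2s2 was not called without E-Wnt array 1 (-0.53, adjusted p = 0.0655), E-Wnt array 2 (-0.41, adjusted p = 0.128), M-Wnt array 1 (-0.56, adjusted p = 0.0563) or M-Wnt array 3 (-0.48, adjusted p = 0.0973), and with slide as a fixed block it was -0.07 (adjusted p = 0.914). Rpl18 was not called without E-Wnt array 1 (-0.44, adjusted p = 0.0563), E-Wnt array 3 (-0.43, adjusted p = 0.0582) or M-Wnt array 1 (-0.35, adjusted p = 0.0959). With slide as a fixed block Rpl18 was -0.69 and not called (adjusted p = 0.115). Median centring ended both calls, at -0.46 (adjusted p = 0.170) for Eif2s2 and -0.39 (adjusted p = 0.370) for Rpl18.

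Pate14, of a family of small secreted proteins of the male tract, was 1.91-fold lower (-0.94 ± 0.16, adjusted p = 0.000115), with -1.42 by its 60-base and -0.45 by its 45-base probe. Fgf11, an intracellular relative of fibroblast growth factors, differed by -0.65, and by -0.08 with slide fitted as a block. Among these 6 arrays only those of E-Wnt could bring Fgf11 through the detection filter, so no test is given for it. Gm904 and Krtap15, a keratin-associated protein gene, were detected in E-Wnt only, with no spot of 6 well above background in M-Wnt. Their red signal was 154, 117 and 142 against 73.3, 80.4 and 65.7 for Gm904 and 112, 145 and 155 against 82.2, 95.4 and 69.7 for Krtap15. The lower bounds were 1.31-fold for Gm904 and 1.29-fold for Krtap15. Among these 6 arrays only those of E-Wnt could bring either gene through the detection filter, so no test is given for them. The 45-base probe of Gm21814, a gene that was not called on average (-0.24 ± 0.10, adjusted p = 0.0706), was also detected in E-Wnt only, at least 1.26-fold higher. For Fgf11, which was detected on 2 of 3 M-Wnt arrays, Agilent's processed signals gave -1.43.

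Probes that overlap in sequence gave a check of how alike such probes read within the array. The probes of a pair share bases and read the same RNA on the same arrays, so the pairs cannot tell line from slide. Of 2454 pairs of tested probes that share at least 25 bases on the same strand, 940 had both members called, and in 939 of these the directions were equal. The exception shared 40 bases and had 1.22 in one probe and -0.69 in the other. Over all 2454 pairs, 2197 had 1 sign. The median gap between the differences of a pair was 0.087 log2, and 0.0996 where both were called. On opposite strands, 34 of 43 pairs had 1 sign, and all 13 with both members called. There the median gap was 0.28 over the 43 pairs and 0.62 over the 13.

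**Figure D4:**
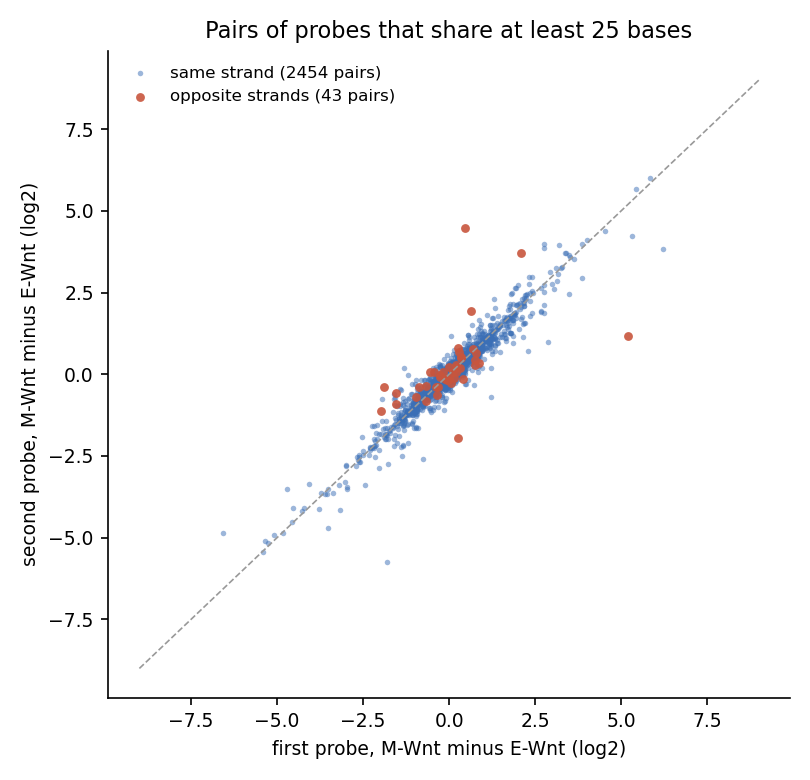
Difference M-Wnt minus E-Wnt (log2) of the first against the second probe for 2454 pairs that share at least 25 bases on the same strand and 43 pairs on opposite strands. The dashed line marks equal values; same-strand pairs lie along it, with a median gap of 0.087, and opposite-strand pairs scatter more, with a median gap of 0.28.

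By kind of probe, the shares called were as follows. Of 32453 tested probes with IDs that start with A_51 or A_52, 49.2% were called and 19.9% by at least 2-fold, with 7966 higher and 8004 lower. Of 6186 tested probes with IDs that start with Mm_ncRNA, 36.4% were called and 11.6% by at least 2-fold, with 1257 higher and 997 lower. Of 2220 tested probes with IDs that start with VIRS, whose targets the files do not name, 18.2% were called, with 328 higher and 76 lower and a median difference of 0.10. A VIRS probe was higher in M-Wnt by 7.13 log2, and 10 VIRS probes were detected in M-Wnt only and 3 in E-Wnt only. Differences between the kinds were not tested.

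The same contrast in the medium without folic acid rests on 6 other arrays. There, 18463 features (45%) were called between M-Wnt and E-Wnt. Of the 18718 features called in control medium, 91.6% had the same sign without folic acid and 70.2% were called there in the same direction, while 258 were called in the opposite one. Of the 7332 called by at least 2-fold, 97.3% had the same sign, and of the 484 called by at least 16-fold, 483. The median size of those 7332 was 1.56 in control medium and 1.40 without folic acid. A test of the difference between media called 2819 features (6.86%).

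Among the 35 named genes, 5 passed that test, of which Psme3ip1 is not read as a difference between media. The rise of 2810021J22Rik in M-Wnt was 1.78 ± 0.11 in control medium and 0.47 ± 0.11 without folic acid (adjusted p of the difference = 0.00012). Hspb1 rose by 1.20 ± 0.18 and by 2.55 ± 0.18 (adjusted p of the difference = 0.00473). Tmem41b was higher by 0.70 ± 0.17 in control medium and lower by -0.50 ± 0.17 without folic acid (adjusted p of the difference = 0.00586). Srsf10 went from 1.06 ± 0.12 to 0.44 ± 0.12 (adjusted p of the difference = 0.0439). The fifth was Psme3ip1, for which the fitted values rest on E-Wnt control arrays not well above background. Although Psme3ip1 is among the 5, its test is therefore not read, and its fitted difference is no measured size. In the other 30 named genes the difference between media did not pass the test. Tbc1d16 differed by -2.92 and -2.66, Ezr by -1.53 and -1.83, Ssbp2 by 1.38 and 1.14, Selenoh by 1.68 and 1.85, and Gcsh by 0.94 and 0.30. Other genes were further apart: Gm46074 differed by -1.36 and 0.22, with its sign turned, Acaca by 0.76 and 0.04, Akr1b10 by -0.73 and -0.17, Ppid by -0.60 and -0.0063 and Ndufs6 by -0.33 and 0.08. A difference between media that misses the test is not shown to be absent. Serum and slides changed together with folic acid between these sets of arrays. E-Wnt array 3 without folic acid stood apart from arrays 1 and 2 in some genes. Selenoh was at -0.65, -0.54 and -2.31 and Gm46074 at -2.33, -1.91 and 0.13 on these arrays, so their values without folic acid lean on array 3.

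No slide held control arrays of both lines, but slide 2 held M-Wnt control arrays 1 and 2 beside E-Wnt arrays 2 and 3 without folic acid. That fit of 4 arrays shares the M-Wnt arrays with the main comparison and its media differ. In it Tbc1d16 differed by -3.24, 2810021J22Rik by 1.73, Hspb1 by 1.47, Ssbp2 by 1.39, Srsf10 by 0.84 and Ezr by -1.89, each called. Of the 32 named genes called in control medium, 16 were not called within slide 2, among them Pdlim5 (0.83, adjusted p = 0.0647), Txndc9 (-0.32, adjusted p = 0.228) and Tmem41b (0.31, adjusted p = 0.270). Over all 18718 features called in control medium, 9336 were called within slide 2, so the named genes were near that share. Pate14 was -1.46 there, H2ac24 3.44 and H2ac13 3.11. Of the 2 E-Wnt arrays on this slide, array 3 was the lower for both histone genes, at -3.73 against -2.52 for H2ac24. Hspd1, not called in either, was -0.0063 there.

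**Figure D5:**
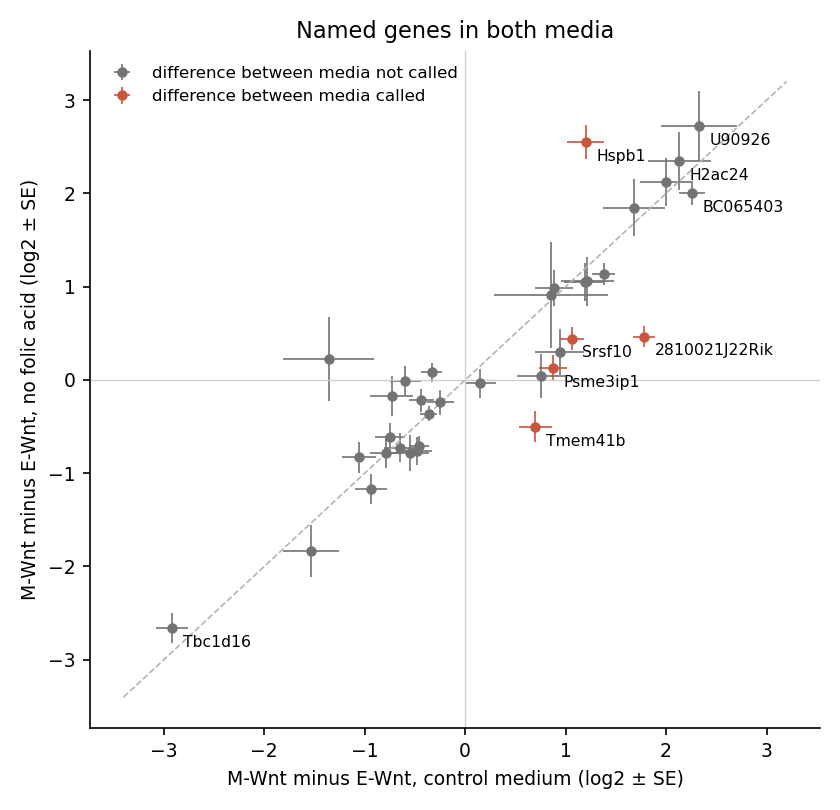
Difference M-Wnt minus E-Wnt (log2 ± SE, n = 3 arrays per group) of the 35 named genes in control medium against the same difference without folic acid. The dashed line marks equal values. The 5 genes in red passed the test between media, with Hspb1 above the line and 2810021J22Rik, Srsf10, Psme3ip1 and Tmem41b below it. Points of Rnf125, Psme3ip1, Gm904 and Krtap15 rest on a line not well above background in control medium. Those of BC051226 and Fgf11 rest on M-Wnt control arrays of which not all were well above background. The red mark of Psme3ip1 is therefore not read as a difference between media.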

How the data were processed

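RNA of 3 cell lines in 2 media was measured on 18 2-colour Agilent arrays, in 6 groups of 3. The deposited files hold red and green spot intensity, the local background and flags per spot (other values, 0 or 1) as Agilent Feature Extraction 10.7.3.1 wrote them, per the file headers. A deposited table of the whole series gives the log10 ratio of red over green, and its values matched those of the scanner files within rounding. From the intensity, the log2 ratio was computed with limma 3.58.1 in R 4.3.3: normexp background correction with offset 50, loess within each array with control and outlier spots at weight 0, and means over the spots of a probe and the probes of a named gene. Probes well above background on all 3 arrays of at least 1 group were kept. limma fitted 6 group means over 18 arrays (12 residual df) with Benjamini-Hochberg adjustment, and a feature was called at an adjusted p under 0.05.

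The array files hold no gene symbols, so 363 of 80520 probes were named for 261 genes from transcript accessions, synonyms and start sequences of the RefSeq gene tables (GRCm38.p6), or through 25 shared bases with such a probe. Symbols follow that table and no coordinates are given, since the build of the array design is not given in the sources used here. Named are the 15 genes with the largest called rise and the 15 with the largest called fall whose arrays of a line all lie beyond those of the other and whose probes have 1 sign, named genes with a probe detected in 1 line only, and tested members of the gene lists. Members and lists were chosen with earlier results of these data known. With 3 arrays a line the smallest exact permutation p is 0.1, so limma's test, which pools the spread over groups and features, was used. Precision is limited by how many arrays there are. Alternatives were other background corrections, normalisations, filters, slide and replicate blocks, array weights and leaving out each array.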

Additional observations from a re-analysis of the deposited data

Results flagged for a closer look

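In 5 named genes the difference between M-Wnt and E-Wnt passed limma's test between the 2 media. For Psme3ip1, near background in E-Wnt, this is not read as a difference between media. The value given is the difference in control medium minus that without folic acid, on the log2 scale. It was 1.32 for 2810021J22Rik, 1.20 for Tmem41b and 0.62 for Srsf10, and -1.35 for Hspb1, whose rise in M-Wnt was larger without folic acid. The fitted value of 0.75 for Psme3ip1 is no measured size, since in control medium no E-Wnt array had both spots well above background (1 spot of 6). M-Wnt without folic acid lay at 0.88, 1.03 and 0.83 for 2810021J22Rik against 2.11, 2.17 and 1.96 in control medium, while E-Wnt lay between 0.23 and 0.52 in both media. For Tmem41b M-Wnt lay at 0.89, 0.82 and 0.54 without folic acid and E-Wnt at 1.19, 1.35 and 1.22. Slide, serum and medium changed together between these sets of arrays, and their parts cannot be told apart.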

How the results depend on the processing

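Median centring gave 12475 called features, 6067 of them higher. Slide as a fixed block gave 10517 (5566 higher, 4951 lower), and the fit within slide 2, added after seeing the data, gave 9589 (5110 higher, 4479 lower). Leaving out each array in turn gave 16497 to 17535. The E-Wnt only probes ranged from 630 to 1157 when each array was left out, and were 936 with at least 1 spot detected per array, 967 with at most 1 array of the other line and 231 with signal over 2 times the cut-off. The M-Wnt only probes were 768 and 172 under the last 2 settings. The share of called features that were higher lay between 48.6% and 52.9% over the alternatives of the planned list. Of the values for named genes and probes under these alternatives, 825 kept direction and side of the threshold, 55 lost the call, 2 (both Prc1) gained it, and 1 turned, Hspd1 within slide 2 (-0.0063). The cause of these changes was not tested, except that fewer arrays enter the fits within slide 2 and without an array. Equal replicate numbers did not pair arrays of the lines, with correlations of their deviations of -0.36, -0.21 and 0.16; with the number as a replicate block 17885 features were called, 17846 of them shared with the fit without it.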
